A study of Mus musculus with 18 samples.

Results

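The MYC and MAX network is the group of basic helix-loop-helix leucine zipper transcription factors that pair with MAX or with its relative MLX and bind E-boxes, chiefly CACGTG. Its mouse genes were followed here in brown preadipocytes given fibroblast growth factor 6 (FGF6). The 10 genes were Myc, Mycn, Max, Mxd1, Mxd3, Mxd4, Mxi1, Mnt, Mlx and Mlxip, taken by symbol from the 48023 gene rows of the count table whatever their values. Of these, 9 were among the 15071 genes with enough counts to be tested. Mycn was not.

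MYC and MYCN form dimers with MAX that activate genes of ribosome production, nucleotide synthesis and cell cycle entry. The MXD proteins, MXI1 and MNT compete for MAX at the same E-boxes and bring in the SIN3 corepressor with its histone deacetylases, so that the genes a proliferating cell reads through MYC are shut down as cells leave the cycle. MLX joins some of these repressors and is the obligate partner of MLXIP, also called MondoA, a sensor of glucose phosphates. In preadipocytes MYC is known as an early growth factor response gene.

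The cells were an immortalized murine brown preadipocyte line, described in the study's methods as made with SV40 T antigen from the stromal vascular fraction of brown fat. All 6 groups therefore carried the T antigen, a viral protein that acts on RB and p53, and all were grown in high glucose medium with serum, the FGF6 protein being added to it. Total RNA was sequenced after 4, 8 or 24 h with vehicle (Veh) or with FGF6, and each time had its own Veh group. Each of the 6 groups held 3 libraries, 18 in all, with 24327816 to 33471980 counts per library. The labels do not say that the 3 libraries of a group came from separate cultures, so the p-values measure the spread between these libraries, which may be technical.

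All 18 libraries lay nearest to the mean of their own group, but Veh replicate 3 at 24 h stood apart. Its counts differed from those of replicates 1 and 2 by a chi-square per degree of freedom of 38.0 and 41.2, where the other pairs of replicates had 2.44 to 7.62. A set of 11 rows, picked after this was seen and including CT010467.1, the mitochondrial ribosomal RNAs mt-Rnr1 and mt-Rnr2, and Rn7sk, held 1.96% of its counts and 0.0997% to 0.165% of those of the other 17 libraries. Without these rows the values of those 2 pairs were 4.93 and 3.05. With this library left out, no 24 h call of a network gene changed. The log2 fold changes at 24 h were then 1.75 for Myc, -0.01 for Max, -1.70 for Mxd1, -0.38 for Mxd3, -2.02 for Mxd4, 1.12 for Mxi1, -0.24 for Mnt, 0.41 for Mlx and 0.17 for Mlxip.

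The 5 genes fixed as a check of FGF signalling (Spry2, Spry4, Dusp6, Etv4 and Etv5) were all higher with FGF6 at each time, with median log2 fold changes of 2.96, 3.27 and 3.02. Over all tested genes, 28.6%, 32.4% and 35.9% were higher at 4, 8 and 24 h. Of 10 preadipocyte markers, 9 had a mean of at least 1 CPM (counts per 1000000 counts of the library) and Dlk1 was at 0 in every library. The preadipocyte markers moved with FGF6. At 24 h, 7 of the 9 tested were lower, where 37.9% of all tested genes were lower and 35.9% higher. Among the 7 were Ly6a (log2 fold change -2.91), Col1a1 (-2.81), Pdgfrb (-2.37) and Pdgfra (-1.62), while Cd34 (1.38) and Vim (0.59) were higher. The list's sum, carried by Vim and Col1a1, went from 7778 to 8189 CPM in Veh to 5933 to 6274 CPM with FGF6.

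Of the markers of other cells, Pecam1 (endothelial), Ptprc (immune), Epcam (epithelial), Adipoq and Lep (mature fat cells) stayed below 1 CPM in every library, while Cd68 reached 16.7 CPM, Cidec 4.66, Cdh5 4.16, Kdr 2.05, Plin1 1.95, Krt18 1.17 and Krt8 1.14 CPM. The muscle markers Acta1, Myog, Myod1 and Des reached 7.36, 4.80, 3.60 and 1.18 CPM. All 4 were lower with FGF6 at 24 h, as were 37.9% of all tested genes. The means with FGF6 were 0.182 against 2.42 CPM in Veh for Acta1 and 0.364 against 3.57 CPM for Myog. With FGF6 at 24 h the mean of Cdh5 was 3.59 CPM against 0.0582 CPM in Veh, and Krt8 and Krt18 were higher too, at 0.907 and 0.873 against 0.126 and 0.0234 CPM. The other endothelial markers did not share the rise of Cdh5. The Kdr groups overlapped at 24 h, with means of 1.09 CPM with FGF6 and 0.823 CPM in Veh. Tek, Emcn and Pecam1 had too few counts to be tested, with means of 0, 0 and 0.0963 CPM with FGF6 and 0.177, 0.0638 and 0.0458 CPM in Veh. The mature fat cell markers, mostly Fabp4, summed to 155.6 to 178 CPM in Veh and 63.4 to 70.1 CPM with FGF6 at 24 h, and the endothelial, immune, muscle and epithelial lists to at most 5.65, 16.7, 16.3 and 2.57 CPM in any library. The part of these shifts in the results given here was not tested. In bulk RNA, fewer cells of a kind and less RNA per cell cannot be told apart.

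The E-box, the sequence through which these proteins act, was looked for in the promoter windows that RefSeq gives for the GRCm38.p6 build, which run from 250 bases before to 50 bases after each start. A window was found for 9 of the 10 genes, 11 windows in all, and none for Myc. The letters CACGTG, which read the same on both strands, stood in the windows of 4 of the 9 genes, Mxd4, Mnt, Mlx and Max. By gene, they stood in 8.09% of all genes with a window and in 11.6% of the tested genes with a window. By window, they stood in 4 of the 11 (36.4%), in 7.15% of all 32851 windows and in 9.77% of the windows of the tested genes. These 4 sites are printed because they belong to partners and repressors of MYC itself. Each line runs 5′ to 3′ on the strand of the gene, with the E-box in capitals.
Mxd4: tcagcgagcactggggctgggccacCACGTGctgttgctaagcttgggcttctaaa
Mnt: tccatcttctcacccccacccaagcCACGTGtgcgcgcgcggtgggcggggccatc
Mlx: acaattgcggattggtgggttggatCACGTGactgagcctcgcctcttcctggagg
Max: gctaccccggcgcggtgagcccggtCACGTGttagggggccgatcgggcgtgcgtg

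The Mxd4 stretch is chr5:34187899-34187954 on the minus strand, with its E-box beginning at position -219 relative to the start of the transcript. The Mnt stretch, chr11:74830776-74830831 on the plus strand, has it at -123. In Mlx (chr11:101087225-101087280, plus strand) it began at -40, and in Max (chr12:76962221-76962276, minus strand) at -3, so that the Max stretch ends 28 bases inside the RefSeq transcript. In the GENCODE annotation used for the gene positions, Max reaches only to 76962201, so that this stretch lies outside the gene. The windows of Mxd1, Mxd3, Mxi1, Mlxip and Mycn held no CACGTG. An ETS motif (CCGGAAG, both strands) and an AP-1 motif (TGANTCA, both strands), the sites of factors that FGF signalling is known to act on, were in 0 of the 11 windows, against 8.86% and 7.81% of all windows and 16.6% and 5.43% of the windows of the tested genes. A match is a description of the letters and not a measured binding site, and a missing match says nothing about the factor.

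With FGF6, Myc was 3.35 to 4.96-fold higher and Mxd4 3.62 to 4.31-fold lower, Mxd1 and Mxd3 were lower, and Mxi1, Mlx and Mlxip were higher, at all 3 times. By the quasi-likelihood test of edgeR (false discovery rate, FDR, under 0.05 after Benjamini-Hochberg adjustment), 6 of the 9 tested genes were higher and 3 lower at 4 h, 5 higher and 3 lower at 8 h, and 4 higher and 4 lower at 24 h. Such counts have to be read against the whole table, since 62.8% of all tested genes passed the same test at 4 h, 70.8% at 8 h and 73.8% at 24 h. By direction, 28.6%, 32.4% and 35.9% of all tested genes were higher and 34.2%, 38.4% and 37.9% lower. The counts of lower network genes, and the count of higher ones at 24 h, are close to these shares. The 3 FGF6 and the 3 Veh libraries did not overlap for 9, 8 and 8 of the 9 genes at the successive times, against 66.2%, 73.8% and 74.8% of all tested genes. The median log2 fold change of the 9 genes was 0.42 at 4 h, 0.20 at 8 h and -0.04 at 24 h, and that of all tested genes was -0.05, -0.05 and -0.02.

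**Figure D1:**
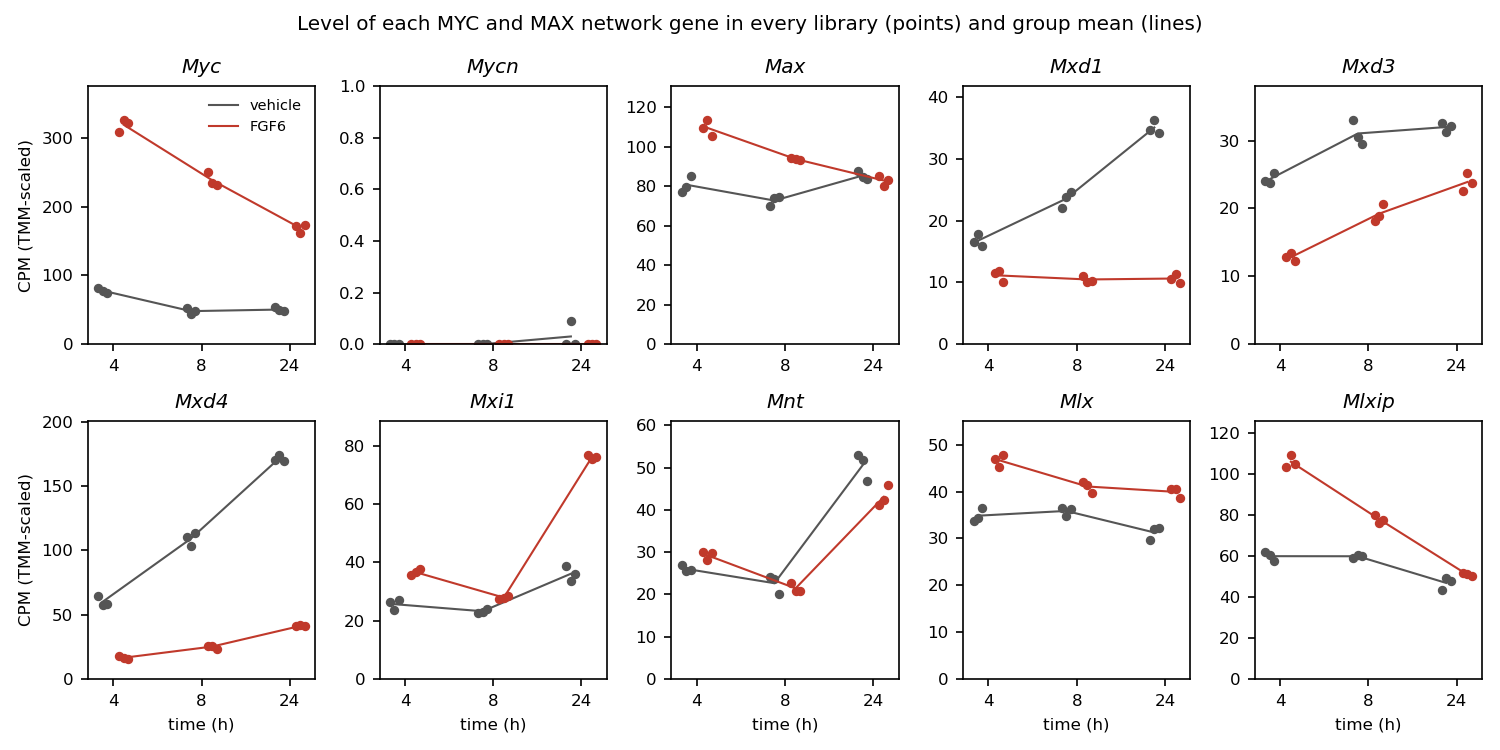
Level of each of the 10 genes in CPM (scaled with TMM factors) against time in h, with the 3 times spaced evenly, 1 point per library and lines through the group means, grey for vehicle and red for FGF6. Myc with FGF6 ran from 309 to 326 CPM at 4 h, above all Veh libraries, while Mxd4 rose with time in Veh and stayed below 42 CPM with FGF6.

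Myc (chromosome 15, 61985391 to 61990374, plus strand, GRCm38), the activating partner of MAX, had the largest increase in the network. In Veh its level was 82.1, 77.2 and 74.3 CPM in the 3 libraries at 4 h, 52.7, 43.7 and 47.8 CPM at 8 h, and 54.3, 49.0 and 47.9 CPM at 24 h. With FGF6 it was 309, 326 and 321 CPM at 4 h, 249.9, 234 and 231 CPM at 8 h, and 171, 162 and 173 CPM at 24 h. Every FGF6 library lay above every Veh library of any time. The increase was 4.09-fold at 4 h (log2 fold change 2.03 ± 0.05 SE, FDR 9.36e-21), 4.96-fold at 8 h (FDR 6.17e-22) and 3.35-fold at 24 h (FDR 1.26e-19). The level with FGF6 was thus highest at 4 h, whereas the fold was highest at 8 h. Veh itself fell by 0.69 on the log2 scale from 4 to 8 h (FDR 1.98e-10).

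Mycn (chromosome 12, 12936093 to 12941914, minus strand), the paralogue of Myc that is best known from neural and other embryonic progenitors, had no count in 17 libraries. The remaining library, Veh replicate 2 at 24 h, had 3 counts, or 0.0905 CPM. A count of 0 allows up to 3 counts, which was 0.0905 to 0.126 CPM in these libraries, an allowance for counting error only. In the sums of Myc and Mycn used here, Mycn thus adds next to nothing.

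Max (chromosome 12, 76937269 to 76962201, minus strand) encodes the partner that MYC and the repressors share. Its Veh libraries held 77.2, 79.7 and 85.4 CPM at 4 h and its FGF6 libraries 109, 114 and 106 CPM. At 8 h the Veh values were 69.8, 73.9 and 74.6 CPM and the FGF6 values 94.2, 93.8 and 93.3 CPM. At both times the groups stood apart, by 1.36-fold at 4 h (FDR 4.16e-10) and 1.29-fold at 8 h (FDR 9.79e-09). At 24 h they overlapped, with 83.9 to 87.5 CPM in Veh and 80.3 to 85.1 CPM with FGF6, and the log2 fold change was -0.04 ± 0.04 (SE, FDR 0.334). The fall of the Max effect from 8 to 24 h was itself past the threshold, at -0.41 on the log2 scale (interaction term, FDR 1.61e-06).

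Mxd4 (chromosome 5, 34173883 to 34187720, minus strand), a repressor partner of MAX found in quiescent and differentiated cells, had the largest decrease of the network at all 3 times. In Veh it was 64.7, 57.4 and 58.1 CPM at 4 h, 110.2, 104 and 114 CPM at 8 h, and 170.5, 174 and 169 CPM at 24 h. With FGF6 it was 17.8, 16.1 and 15.8 CPM at 4 h, 25.98, 26.1 and 23.7 CPM at 8 h, and 41.0, 41.7 and 41.2 CPM at 24 h. No FGF6 library of any time reached the lowest Veh library. The difference was 3.62-fold at 4 h (log2 fold change -1.86 ± 0.06 SE, FDR 1.35e-19), 4.31-fold at 8 h (FDR 1.04e-21) and 4.15-fold at 24 h (FDR 3.56e-22). Mxd4 was higher at each later time under both treatments, without overlap between times. The change in its FGF6 effect from 8 to 24 h was 0.05 ± 0.07 (SE) on the log2 scale and not past the threshold (interaction FDR 0.572).

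Mxd1 (chromosome 6, 86647042 to 86669161, minus strand), the founding member of the MXD family, had an effect that grew at each step. It was 16.5, 17.9 and 15.9 CPM in Veh at 4 h against 11.5, 11.9 and 10.04 CPM with FGF6. At 24 h it was 34.8, 36.3 and 34.1 CPM in Veh against 10.5, 11.4 and 9.95 CPM with FGF6. The Veh level went up at both steps while the FGF6 level stayed between 9.95 and 11.9 CPM in all 9 libraries. The log2 fold change was -0.59 at 4 h (FDR 1.58e-07), -1.16 at 8 h (FDR 1.71e-13) and -1.72 at 24 h (FDR 2.26e-17). The 4-to-8 h and 8-to-24 h steps in the effect were -0.58 and -0.56 (interaction FDR 0.000117 and 6.82e-05).

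Mxd3 (chromosome 13, 55325168 to 55329823, minus strand), the family member known to be expressed in cells in S phase, was also lower but its effect shrank. Its Veh libraries spanned 23.7 to 25.2 CPM at 4 h, 29.5 to 33.1 at 8 h and 31.3 to 32.6 at 24 h. With FGF6 the spans were 12.2 to 13.4, 18.1 to 20.6 and 22.6 to 25.3 CPM. The groups did not overlap at any time. The log2 fold change went from -0.92 at 4 h (FDR 2.85e-12) to -0.70 at 8 h (FDR 8.54e-11) and -0.42 at 24 h (FDR 3.83e-07). The shrinkage from 8 to 24 h was past the threshold (0.28, FDR 0.00798) and that from 4 to 8 h was just outside it (0.22, FDR 0.0526).

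Mxi1 (chromosome 19, 53310518 to 53375810, plus strand), which encodes a further MXD-type repressor, went the opposite way from the other 3 MXD-type genes. Its 3 Veh libraries held 26.4, 23.6 and 27.0 CPM at 4 h and the FGF6 libraries 35.6, 36.7 and 37.6 CPM. At 8 h the spans were 22.6 to 24.2 CPM in Veh and 27.3 to 28.5 CPM with FGF6. At 24 h Veh held 38.6, 33.7 and 36.0 CPM and FGF6 76.9, 75.3 and 76.1 CPM. The increase was thus small at 8 h (log2 fold change 0.26, FDR 0.000168) and 2.11-fold at 24 h (FDR 3.62e-16), and the difference between those effects was 0.81 (interaction FDR 1.97e-09).

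Mnt (chromosome 11, 74830920 to 74845725, plus strand), a MAX partner that represses in cycling and resting cells alike, showed small effects. It spanned 25.5 to 27.0 CPM in Veh and 28.1 to 30.0 CPM with FGF6 at 4 h, and 46.9 to 53.1 against 41.1 to 45.8 CPM at 24 h. The log2 fold change was 0.17 at 4 h (FDR 0.0287), -0.08 at 8 h with overlapping groups (FDR 0.306) and -0.23 at 24 h (FDR 0.0011). The 4 h call did not hold when libraries were scaled by their totals alone (0.07, FDR 0.418) or by upper-quartile factors (0.11, FDR 0.153). It was lost too without FGF6 replicate 1 (FDR 0.0512), Veh replicate 2 (FDR 0.0857) or Veh replicate 3 (FDR 0.0705). At 8 h, without Veh replicate 3 of that time, the value was -0.16 and past the threshold (FDR 0.0386). Mnt changed more with time in Veh, being 2.23 times as high at 24 h as at 8 h (FDR 1.39e-13).

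Mlx and Mlxip, the partners of the glucose-responsive branch, were both higher with FGF6. Mlxip (chromosome 5, 123394798 to 123457932, plus strand) was 62.2, 60.4 and 57.5 CPM in Veh at 4 h and 103.5, 109.7 and 105.3 CPM with FGF6. At 24 h it was 43.5, 49.6 and 47.9 CPM in Veh and 51.6, 51.2 and 50.3 CPM with FGF6, groups that stood apart by less than 1 CPM. Its log2 fold change fell from 0.82 at 4 h (FDR 9.98e-15) to 0.38 at 8 h (FDR 1.94e-08) and 0.12 at 24 h (FDR 0.0224), with both steps past the threshold (-0.44 and -0.26, interaction FDR 4.21e-06 and 0.00124). The 24 h call was lost without the filter on low counts (0.11, FDR 0.0546).

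Mlx (chromosome 11, 101087277 to 101092207, plus strand) spanned 33.7 to 36.5 CPM in Veh and 45.3 to 47.9 CPM with FGF6 at 4 h. At 8 h the spans were 34.8 to 36.5 and 39.8 to 42.0 CPM, and at 24 h 29.7 to 32.1 and 38.7 to 40.6 CPM. The groups never overlapped, and the log2 fold change was 0.42, 0.20 and 0.35 (FDR 1.09e-08, 0.000441 and 2.18e-07). The dip from 4 to 8 h was past the threshold (-0.22, interaction FDR 0.00928).

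**Figure D2:**
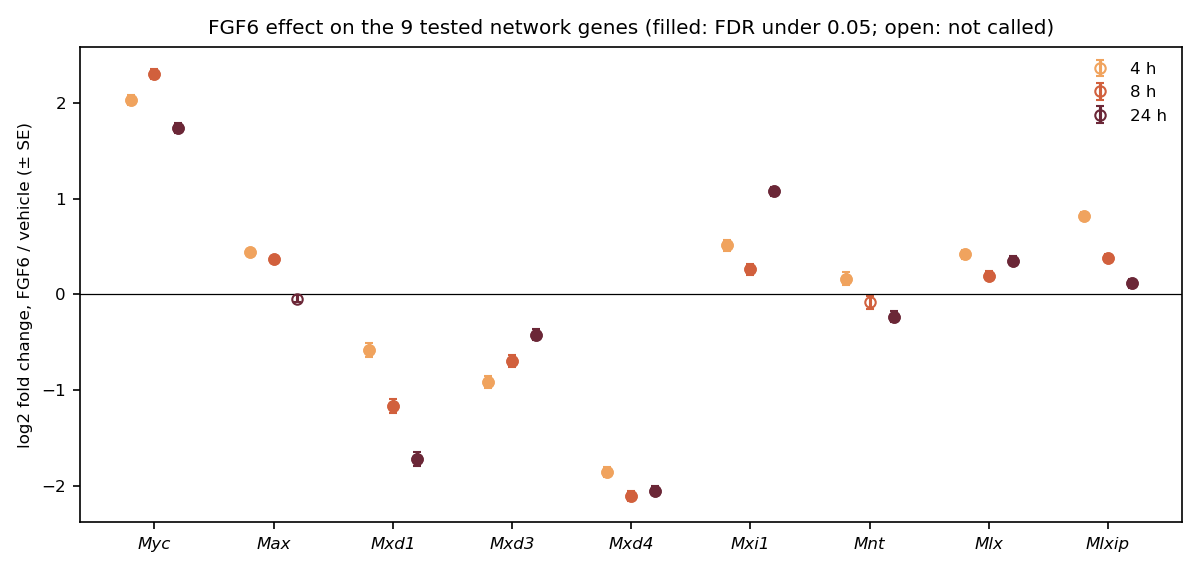
The log2 fold change of FGF6 over vehicle with its standard error for the 9 tested genes at 4, 8 and 24 h. Filled points passed FDR under 0.05 and open points (Max at 24 h, Mnt at 8 h) did not. Myc lies between 1.74 and 2.31, Mxd4 between -2.11 and -1.86, and Mxi1 reaches 1.08 at 24 h.

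In 5 of the 10 genes, part of the exonic sequence is shared with a gene on the opposite strand, and the strand setting of the counting is not given in the sources used here, so reads from both partners cannot be told apart there. The shared part was 385 of 1999 bases in Mlx (with Psmc3ip), 514 of 8483 in Mxd4 (with Gm42846), 267 of 8326 in Mlxip (with Gm15747), 194 of 6823 in Mxi1 (with Gm10197) and 105 of 2369 in Mxd3 (with Prelid1). Myc, Mycn, Max, Mxd1 and Mnt shared none.

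The effect of FGF6 depended on time in most of the network. The interaction term between 4 and 8 h passed in 6 of the 9 tested genes, where 30.6% of all tested genes passed, and that between 8 and 24 h in 6 of 9, where 45.1% passed. Myc's effect grew by 0.28 from 4 to 8 h (FDR 0.00614) and fell by 0.57 from 8 to 24 h (FDR 1.22e-06). From 4 to 8 h the Mxd4 effect deepened by a further -0.25 (FDR 0.014) and the Mxi1 effect shrank by the same amount, -0.25 (FDR 0.0157). The Mxd4 step was lost without FGF6 4 h replicate 1 (FDR 0.106) or FGF6 8 h replicate 3 (FDR 0.0772). The Mxi1 step was lost without FGF6 4 h replicate 3 (FDR 0.0528) or Veh 4 h replicate 2 (FDR 0.0621). For Mnt the difference between 4 and 8 h was -0.25 and did not pass the threshold (FDR 0.0501). It passed in some other fits, such as that without Veh 8 h replicate 3 (-0.32, FDR 0.00699). The Mlx step from 8 to 24 h (0.16, FDR 0.0541) passed without Veh 24 h replicate 3 (0.17, FDR 0.0466).

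Veh cells changed with time too. From 4 to 8 h, 7 of the 9 genes passed the test in Veh, 3 higher and 4 lower, where 43.0% of all tested genes passed, 21.2% higher and 21.7% lower. These were Mxd4 (0.86), Mxd1 (0.49) and Mxd3 (0.35) among the higher and Myc (-0.69), Mnt (-0.20), Max (-0.15) and Mxi1 (-0.14) among the lower, on the log2 scale. The Mxi1 groups overlapped in this step. From 8 to 24 h, 7 of 9 passed again, 5 higher and 2 lower, where 49.2% of all tested genes passed, 25.5% higher and 23.7% lower. These were Mnt (1.16), Mxd4 (0.65), Mxi1 (0.63), Mxd1 (0.58) and Max (0.23) among the higher and Mlxip (-0.35) and Mlx (-0.20) among the lower. In Veh, Mxd1 and Mxd4 rose at both steps and Myc fell at the earlier step only, the later step giving 0.07 (FDR 0.346). No group from the time of addition was among the libraries used here, so the direction of FGF6 relative to the starting cells cannot be given.

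To compare levels between genes, CPM were divided by exonic length in kilobases. In Veh at 4 h Myc had the highest length-scaled level, 28.7 ± 1.4 CPM per kb (SD, n = 3), followed by Max at 22.5 ± 1.2 and Mlx at 17.4 ± 0.72. Mxd3 came next at 10.3 ± 0.32 CPM per kb, while Mlxip (7.21 ± 0.29) and Mxd4 (7.08 ± 0.47) overlapped. In Veh at 24 h the length-scaled order was Max (23.7 ± 0.52), Mxd4 (20.2 ± 0.31) and Myc (18.5 ± 1.3), without overlap between neighbours. Mxd4 had thus moved from the sixth to the second place, ahead of Myc.

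With FGF6 the length-scaled level of Myc was first at all 3 times, at 117.3 ± 3.4, 87.7 ± 3.7 and 62.1 ± 2.1 CPM per kb. Max followed at 30.4 ± 1.1, 26.1 ± 0.13 and 23.0 ± 0.68 CPM per kb, then Mlx, and Mxd1 was the lowest of the 9 tested genes. Among the repressors with FGF6, Mxi1 had the highest length-scaled level at 24 h, 11.2 ± 0.12 CPM per kb, ahead of Mxd3 (10.1 ± 0.56) and Mnt (9.31 ± 0.53), of which Mxd3 and Mnt overlapped. Mxd4 was the last but Mxd1 at 1.96 ± 0.13, 2.98 ± 0.16 and 4.87 ± 0.04 CPM per kb.

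The share of Myc in the summed length-scaled counts of the 10 genes put these levels in 1 number per library. It was 27.3% ± 1.3 (SD, n = 3), 17.6% ± 1.3 and 15.7% ± 0.83 in Veh at 4, 8 and 24 h, and 57.4% ± 0.68, 53.1% ± 0.83 and 41.9% ± 0.85 with FGF6. The 5 repressor genes Mxd1, Mxd3, Mxd4, Mxi1 and Mnt together took 27.8% ± 0.40, 37.4% ± 0.41 and 46.3% ± 0.17 in Veh, and 10.1% ± 0.26, 12.9% ± 0.43 and 24.9% ± 0.75 with FGF6. Mxd4 alone went from 6.75% ± 0.40 at 4 h to 17.1% ± 0.32 at 24 h in Veh, and from 0.957% ± 0.08 to 3.28% ± 0.08 with FGF6.

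The ratio of Myc and Mycn to the 5 repressor genes, in length-scaled counts, was 0.985 ± 0.043 in Veh at 4 h, 0.470 ± 0.034 at 8 h and 0.338 ± 0.017 at 24 h (SD, n = 3). With FGF6 it was 5.69 ± 0.21, 4.12 ± 0.20 and 1.68 ± 0.08. The lowest FGF6 library at any time, 1.60 at 24 h, was above the highest Veh library, 1.01 at 4 h. The fold between the group means was 5.77 at 4 h, 8.76 at 8 h and 4.98 at 24 h. Without Veh replicate 3 the Veh ratio at 24 h was 0.343 and the fold 4.91. The ratio went down with time under both treatments, and it says which mRNAs were more abundant and not which proteins sat on MAX. Without division by length, a setting chosen after the data had been seen, the ratio with FGF6 at 24 h was 0.866, below 1, and the folds were 5.88, 9.96 and 5.59.

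**Figure D3:**
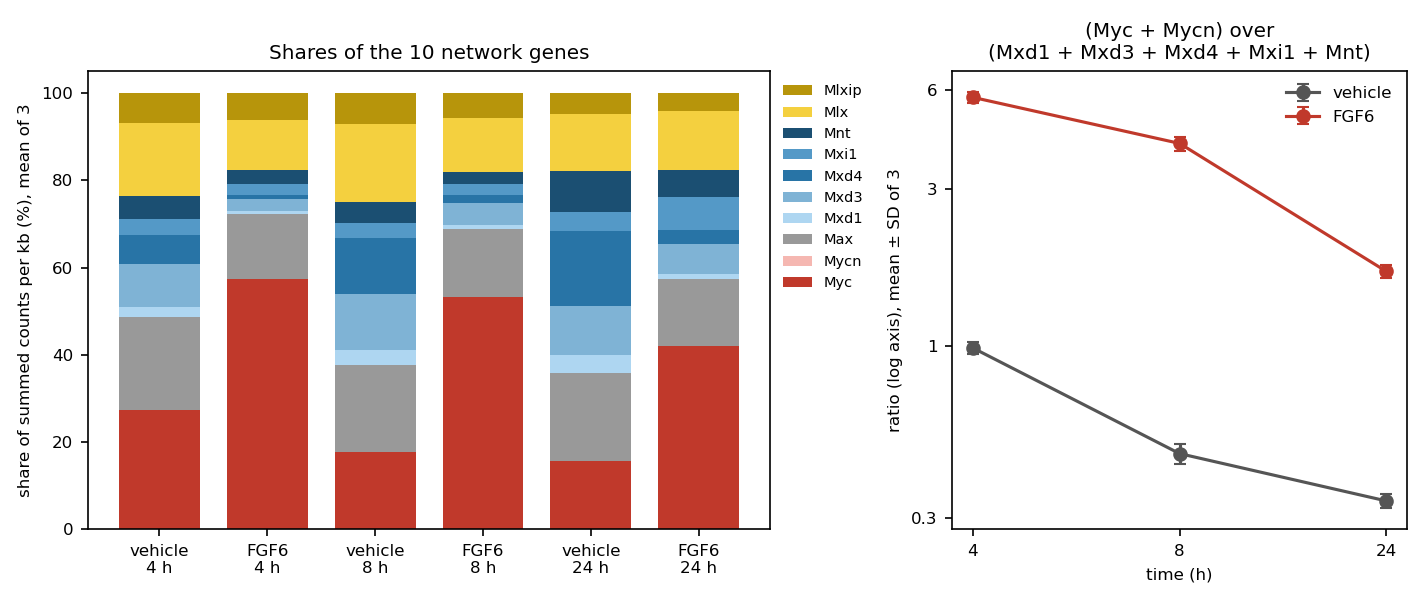
Left, share of each gene in the summed counts per kb of the 10 genes (%), mean of 3 libraries per group. Right, ratio of Myc plus Mycn to the 5 repressor genes on a log axis against time in h (times evenly spaced), mean ± SD of 3. Myc takes 57.4% with FGF6 at 4 h against 27.3% in vehicle, and the ratio stays above 1 with FGF6 and below 1 in vehicle in the group means.

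Genes known to be activated by MYC were described from a list of 30, covering ribosome production, nucleotide and polyamine synthesis, translation and the cell cycle. The list was chosen with results of these samples known. Of the 30, 25 were higher and 1 lower with FGF6 at 4 h, 30 higher at 8 h and 29 higher at 24 h, where 28.6%, 32.4% and 35.9% of all tested genes were called higher. Tert, with at most 43 counts in a library, was near the threshold at 8 h (FDR 0.0463), with overlapping groups. The median log2 fold change of the list was 0.50, 0.87 and 0.95. The list's median was highest at 24 h, the time at which the Myc effect was smallest. A link between the list and the Myc effect was not tested.

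Odc1, ornithine decarboxylase of polyamine synthesis, had the largest increase in the list at each time. It was 52.8 ± 1.9 CPM in Veh and 153 ± 1.7 CPM with FGF6 at 4 h, and 36.2 ± 4.4 and 182 ± 6.7 CPM at 24 h (SD, n = 3). The fold rose from 2.91 to 5.03 (FDR 3.99e-18 and 6.06e-22). Polr1b, a subunit of RNA polymerase I, went from 54.5 ± 1.0 to 112.5 ± 5.4 CPM at 4 h (FDR 1.83e-16) and from 37.2 ± 2.3 to 102 ± 2.1 CPM at 8 h (FDR 2.22e-19). Tfrc, the transferrin receptor, was 2.90-fold higher at 24 h (FDR 5.70e-21).

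The exceptions in the list were few. E2f2, a cell cycle transcription factor, was lower at 4 h (log2 fold change -0.37, FDR 0.00418). Cdk4 (-0.02), Ldha (0.02), Ptma (0.07) and Tert (0.15) did not pass at 4 h, nor did Ccnd2 at 24 h (-0.03, FDR 0.513), and these names were read off after their values were seen.

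The E-box stood in 9 of the 31 promoter windows found for the list (29.0%), belonging to 8 of 25 genes (32.0%). Over the tested genes it stood in 9.77% of the windows and 11.6% of the genes with a window. Ldha, Eif4e, Nme1 and Cdk4 are shown as examples for comparison with the sites of the network genes, again 5′ to 3′ on the strand of the gene with CACGTG in capitals.
Ldha: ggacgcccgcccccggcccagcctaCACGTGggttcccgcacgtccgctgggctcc
Eif4e: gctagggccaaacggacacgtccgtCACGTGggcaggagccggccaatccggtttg
Nme1: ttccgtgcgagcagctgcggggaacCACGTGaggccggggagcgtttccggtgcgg
Cdk4: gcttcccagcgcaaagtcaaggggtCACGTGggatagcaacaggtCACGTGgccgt

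These lie at chr7:46845731-46845786 (Ldha, plus strand), chr3:138527179-138527234 (Eif4e, plus), chr11:93968260-93968315 (Nme1, minus) and chr10:127063392-127063447 (Cdk4, plus) in GRCm38.p6. The other genes of the list with the letters were Hspd1, Eif4a1, Apex1 and Dnph1. They were called higher at 4, 8 and 24 h, as were Eif4e and Nme1. Of the whole list, with or without the letters, 25, 30 and 29 of the 30 genes were higher at these times. Whether the letters bear on the change was not tested. Eif4e, the cap-binding protein of translation, had log2 fold changes of 0.79, 0.94 and 1.17 at 4, 8 and 24 h. Ldha, lactate dehydrogenase A, had 0.02, 0.09 and 0.86, so that it was called higher at 8 h (FDR 0.00818) and at 24 h (FDR 3.05e-19). Cdk4, the cyclin D kinase, whose window held 4 copies, had -0.02, 0.08 and 0.06 (FDR 0.431, 0.0063 and 0.0316). Nme1, a nucleoside diphosphate kinase, had 0.41, 0.51 and 0.57.

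Of 13 genes listed as repressed by MYC, 3 were higher and 5 lower at 4 h, 1 higher and 9 lower at 8 h, and 2 higher and 10 lower at 24 h. Over all tested genes, 34.2%, 38.4% and 37.9% were called lower and 28.6%, 32.4% and 35.9% higher. Both 4 h counts of the list are close to that background. The list's median log2 fold change was 0.01, -0.44 and -1.34. Several of these genes are also markers of growth arrest or of fat cell differentiation, and the list was chosen with results of these samples known.

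Cdkn2b, the INK4-type inhibitor of CDK4 and CDK6 that MYC is known to repress through ZBTB17 (MIZ1), was lower from the start, at 94.3 ± 2.6 CPM in Veh and 39.2 ± 1.9 CPM with FGF6 at 4 h (log2 fold change -1.26, FDR 9.94e-18) and -1.74 on the log2 scale at 8 h (FDR 7.64e-21). Cdkn1b, the CDK inhibitor p27, was 113 ± 5.6 against 65.0 ± 2.4 CPM at 4 h (-0.80, FDR 5.52e-15). Gas1, a gene named for its expression in growth-arrested cells, was 848 ± 5.6 against 268 ± 25 CPM at 8 h (-1.66, FDR 5.22e-18). These 3 were lower at all 3 times.

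Cdkn1a, the CDK inhibitor p21, went the other way early. It was 163 ± 5.4 CPM in Veh and 332 ± 12 CPM with FGF6 at 4 h (log2 fold change 1.02, FDR 1.93e-17), 0.43 on the log2 scale at 8 h (FDR 4.33e-10) and -0.12 at 24 h. Ndrg1 (0.37, FDR 7.75e-07) and Clu (0.21) were the other 2 higher at 4 h, Clu being named after its values were seen. At 24 h Clu, the secreted chaperone clusterin, was 11.7 ± 0.17 CPM in Veh and 1.38 ± 0.42 CPM with FGF6 (-3.07, FDR 6.01e-16), and Thbs1, the matrix protein thrombospondin 1, 928 ± 13 against 145 ± 4.3 CPM (-2.68, FDR 5.24e-23). Gadd45a (0.58, FDR 0.000885) and Ndrg2 (0.44, FDR 0.000772) were the 2 higher at 24 h.

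Of 12 MYC cofactor genes, 6 were higher and 2 lower at 4 h, 7 higher and 1 lower at 8 h, and 9 higher and 0 lower at 24 h. Of all tested genes, 28.6%, 32.4% and 35.9% were higher and 34.2%, 38.4% and 37.9% lower at these times. The list had medians of 0.14, 0.32 and 0.28. The helicase subunits Ruvbl1 and Ruvbl2, shared by several chromatin remodellers, led at every time. Ruvbl2 was 119 ± 6.1 CPM in Veh and 180.5 ± 2.1 CPM with FGF6 at 4 h (FDR 8.98e-14), and 84.6 ± 0.99 against 180.3 ± 2.8 CPM at 24 h, 2.13-fold (FDR 2.65e-19). Kat5, the TIP60 acetyltransferase, was lower at 4 h (-0.25, FDR 1.79e-05) and at 8 h (-0.42, FDR 2.56e-09), and Paf1, of the elongation complex of that name, at 4 h (-0.15, FDR 0.00641). At 24 h Kat5 and Paf1 were both at -0.04 (FDR 0.417 and 0.480).

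Genes of the corepressor that the MXD proteins recruit were also listed. Of 10 SIN3 complex and partner genes, 5 were higher and 2 lower at 4 h, 4 and 2 at 8 h, and 7 and 1 at 24 h, against 28.6% and 34.2%, 32.4% and 38.4%, and 35.9% and 37.9% of all tested genes. The 8 h count of 4 of 10 is close to that background. The medians were 0.08, 0.06 and 0.17 beside all-gene medians of -0.05, -0.05 and -0.02. Scaling by library totals alone lowered the all-gene median at 4 h to -0.15, so list medians near 0 at that time have no firm sign. With DESeq2, 7 of the 10 were higher at 8 h. Sap30, a SIN3-associated protein, rose most, from 25.4 ± 2.0 CPM in Veh to 43.9 ± 2.7 CPM with FGF6 at 24 h (log2 fold change 0.79, FDR 2.55e-11). Sin3a, the scaffold, was 0.31 higher at 4 h (FDR 5.26e-08) and Hdac2, a deacetylase of the complex, 0.56 higher at 24 h (FDR 5.84e-14). Hdac1 was lower at 4 h (-0.19) and 8 h (-0.27), and the nuclear receptor corepressor Ncor1 at all 3 times (-0.18, -0.19 and -0.16).

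The genes read by MondoA (MLXIP) and its relative ChREBP showed a split. Txnip, an arrestin-like protein that restrains glucose uptake and the best known MondoA target, was 73.8 ± 5.5 CPM in Veh and 10.1 ± 1.8 CPM with FGF6 at 4 h, 126 ± 11 against 28.9 ± 0.60 CPM at 8 h, and 134 ± 9.4 against 14.9 ± 0.94 CPM at 24 h. That was 7.33-fold (FDR 2.04e-19), 4.35-fold (FDR 2.10e-18) and 8.98-fold lower (FDR 1.98e-21). Arrdc4, its close relative and also a MondoA target, was lower as well, by -0.45, -0.33 and -0.82 on the log2 scale (FDR 0.000427, 0.0024 and 2.79e-07). Both were thus lower at every time, while Mlx and Mlxip mRNA was higher.

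The lipogenic genes of the list had smaller values. Fasn, fatty acid synthase, was higher at 4 h (0.53, FDR 2.30e-09) and 8 h (0.49, FDR 6.37e-09) and had 0.07 at 24 h (FDR 0.240). Acly, ATP citrate lyase, had 0.10 at 4 h (FDR 0.00859), 0.04 at 8 h (FDR 0.275) and -0.39 at 24 h (FDR 6.43e-11), where it was lower as Txnip was. Acaca, acetyl-CoA carboxylase, passed at no time (0.03, 0.01 and 0.02), and Pklr had too few counts to be tested.

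Among 5 further E-box factors of the same structural class, Mga, a MAX partner, was slightly higher at 4 h (0.22, FDR 0.000183) and 8 h (0.14, FDR 0.00778). Mycl, the third MYC paralogue, was present at 2.01 ± 0.24 CPM in Veh at 4 h and lower with FGF6 at 4 h (-0.61 ± 0.21 SE, FDR 0.0119) and 24 h (-0.82 ± 0.23 SE, FDR 0.00268). Usf1 was lower at all 3 times by no more than -0.27, and its 4 h (FDR 0.0490) and 24 h (FDR 0.0406) calls were near the threshold. Of the 4 tested, 1 was higher and 2 lower at 4 h, 2 and 1 at 8 h, and 0 and 2 at 24 h. Of all tested genes, 28.6%, 32.4% and 35.9% were higher and 34.2%, 38.4% and 37.9% lower at these times. The count of 2 lower at 4 h fell to 1 under 6 other settings and to 0 without FGF6 replicate 1 or Veh replicate 3. The count of 2 lower at 24 h fell to 1 with DESeq2, with no filter and in 5 of the 6 fits that left out 1 library. Without Veh replicate 3 at 24 h, the library that stood apart, the Usf1 call was lost and Mga was called higher. Usf2 passed at 8 h alone (0.18, FDR 0.00185), and Mlxipl, which encodes ChREBP, had at most 5 counts in a library and was not tested.

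**Figure D4:**
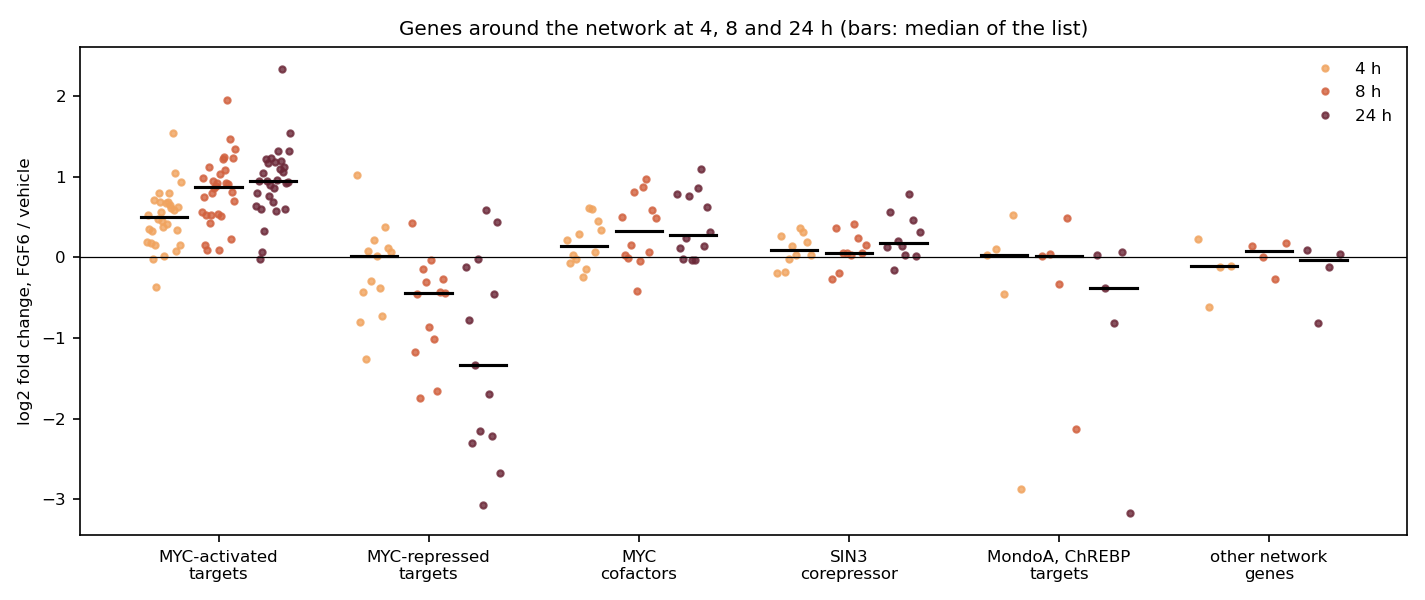
The log2 fold change of FGF6 over vehicle at 4, 8 and 24 h for each tested gene of the 6 lists around the network, with the list's median as a bar. The MYC-activated genes have medians of 0.50, 0.87 and 0.95 and the MYC-repressed genes 0.01, -0.44 and -1.34, while the SIN3 genes have medians of 0.08, 0.06 and 0.17 and Txnip is the lowest point in its list at each time.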

How the data were processed

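RNA-seq was performed on total RNA of 18 libraries, 3 for each of 6 groups (Veh or FGF6 at 4, 8 and 24 h). The authors deposited raw read counts per Ensembl gene, not normalized. According to the labels and the study's methods, reads were aligned to GRCm38 with STAR and counted with Subread featureCounts, whose versions, annotation release, strand setting and treatment of multimapping reads are not given in the sources used here. Of 48023 gene IDs, 98.3% matched a GENCODE M21 symbol, and positions and exonic lengths were taken from that annotation. No column was without a sample.

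Genes were filtered with edgeR's filterByExpr, leaving 15071. Counts were scaled with TMM factors and fitted with 6 group means by edgeR's quasi-likelihood test (edgeR 4.0.16, R 4.3.3), P values being adjusted over all tested genes by Benjamini-Hochberg with a threshold of 0.05. This replaced the study's own limma-voom fit, which was run as an alternative, as were DESeq2 1.42.0, other scaling factors, other filters, an FDR of 0.25, each time fitted alone, a replicate block and each library left out. Fits were tested on simulated data. CPM use the TMM-scaled totals, and no spike-in was used, so all values are relative to the total of the library. With 3 against 3 libraries an exact permutation test cannot go below 0.1, so none is given for single values.

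The network genes and the lists around them were chosen with earlier results of these data known. All 10 network genes are named. From each other list, the 2 genes that rose most and the 2 that fell most at each time are named, among those past the threshold, without overlap between groups and with a mean of at least 1 CPM, and lists of at most 6 genes may be named whole. For each tested network gene the 3 most alike genes were taken by Pearson correlation of log2(CPM + 0.5) over 18 libraries, among genes with a mean of at least 5 CPM. One of these genes is not reported here. Promoter windows came from RefSeq (GRCm38.p6).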

Additional observations from a re-analysis of the deposited data

Results flagged for a closer look

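Several network genes had an FGF6 effect that differed between times by a test of the difference itself, the interaction term of the edgeR fit (quasi-likelihood test, Benjamini-Hochberg adjusted). Groups of 3 libraries are too small to test a single library as far from the others. On the log2 scale, the effect at 8 h minus the effect at 4 h was 0.276 in Myc, -0.579 in Mxd1, -0.252 in Mxd4, -0.25 in Mxi1, -0.224 in Mlx and -0.441 in Mlxip. Of these 6, the effects of Myc, Mxd1 and Mxd4 moved further from 0. The effect at 24 h minus that at 8 h was -0.566 in Myc, -0.41 in Max, -0.557 in Mxd1, 0.275 in Mxd3, 0.814 in Mxi1 and -0.263 in Mlxip. Mxd1 was the only network gene whose effect grew in size at both steps with both differences past the threshold. The differences compare effects that share the 8 h libraries.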

How the results depend on the processing

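Of 414 counts of called genes recomputed under another setting, 388 stayed within 1.5 times the reported count, and of 288 recomputed with 1 library left out, 270 did. All 6 counts of network genes higher or lower with FGF6 were among these. Fold changes of network genes and the differences of their effects between times, counted together, kept their direction and their side of the threshold in 709 of 738 refits. Most of the refits that did not were of differences between times. Max at 24 h, not called, ran from -0.0191 to 0.0161 with 1 library left out, changing sign without Veh replicate 1. The calls of Mnt at 4 and 8 h, Mlxip at 24 h and the 4-to-8 h steps of Mxd4 and Mxi1 are given with the results. The 4-to-8 h step of Mxd3 passed with library totals (0.26, FDR 0.0243), upper-quartile factors or only those times fitted. It also passed without FGF6 4 h replicate 2, FGF6 8 h replicate 1 or Veh 8 h replicate 1. The 8-to-24 h step of Mlx passed with library totals (0.21, FDR 0.00789) or upper-quartile factors. It also passed without FGF6 24 h replicate 3, Veh 24 h replicate 3 or Veh 8 h replicate 2. The 4-to-8 h step of Mnt passed with no filter, 10 counts or the replicate block. It also passed without FGF6 8 h replicate 1, Veh 4 h replicate 1 or Veh 8 h replicate 3. Scaling by library totals moved the median of all genes at 4 h from -0.05 to -0.15 and the calls from 4308 higher and 5152 lower to 3242 and 6495. With library totals or upper-quartile factors, MYC cofactors lower at 4 h went from 2 to 4, further E-box factors higher at 8 h and MondoA and ChREBP targets higher at 4 h from 2 to 1, and MYC-activated genes lower at 4 h from 1 to 3 and 2; with totals, cofactors lower at 8 h went from 1 to 2. SIN3 genes higher at 8 h went from 4 to 7 with DESeq2, a minimum of 10 counts, single-time fits or an FDR of 0.25. Further E-box factors lower at 4 h went from 2 to 1 with limma-voom, DESeq2, no filter, 10 counts, single-time fits and the replicate block, those lower at 24 h from 2 to 1 with DESeq2 or no filter, and those higher at 24 h from 0 to 1 with DESeq2 or an FDR of 0.25. MondoA and ChREBP targets higher at 8 h went from 1 to 2 with DESeq2 or single-time fits and at 24 h from 0 to 1 at an FDR of 0.25. Leaving out 1 library gave 0 to 1 further E-box factors lower at 4 h, 0 to 1 higher and 1 to 2 lower at 24 h, 1 to 3 cofactors lower at 4 h, 4 to 7 SIN3 genes and 1 to 2 MondoA and ChREBP targets higher at 8 h (the highest without FGF6 8 h replicate 3), and 2 to 5 MYC-repressed genes higher at 4 h (5 without FGF6 4 h replicate 3). The cause of these shifts was not tested. Without division by length, the Myc to repressor ratio was 0.51, 0.229 and 0.155 in Veh and 3.00, 2.29 and 0.866 with FGF6.

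No pairing of the samples by replicate number was visible, which does not show that there was none. Deviations of same-numbered libraries correlated at -0.153 to 0.124, and 2 of 9 FGF6 libraries correlated best with their own number. With the replicate block, 4300 genes were higher and 5165 lower at 4 h, and of the network genes the Mnt step from 4 to 8 h passed the threshold (-0.25, FDR 0.0446).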

Other observations

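For each tested network gene, the genes whose log2 levels followed it most closely over the 18 libraries were read from 10372 candidates, as a description without a test. The libraries share 6 groups, so such likeness mostly reflects the group means, and it says nothing of shared control. Closest to Myc were Foxc2 (Pearson r = 0.998), a forkhead factor of mesenchymal and adipose cells, Traf5 (0.996) and Naf1 (0.994), an assembly factor of ribonucleoproteins such as telomerase. Among the genes closest to Mxd4 were Gulp1 (0.995) and Rrad (0.992). Mxd1 was followed by Mxra8 (0.988), Atraid (0.987) and Lacc1 (0.986), and Mxd3 by Pfkm (0.99), Gtse1 (0.985), a gene of the G2 and S phases, and H2afy2 (0.985).

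Mnt was followed by Idi1 (0.984) and Aacs (0.973), both of isoprenoid and sterol synthesis, with Ndrg1 (0.979), a gene of the MYC-repressed list, between them. Mlxip was followed by Cmtm6 (0.982), Aldh1a3 (0.972) and Ankrd27 (0.971), and Mxi1 by Hnrnpc (0.979), Gtf2a1 (0.975) and Pank3 (0.971). The values were lower for Max, with Mafk (0.972), Wsb2 and Tlnrd1 (both 0.945), and for Mlx, with Mosmo (0.959), Zc3h12c (0.958) and Itgb1 (0.957).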
